A study of Mus musculus with 6 samples.

Results

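The collagen gene family was followed through 38 genes, out of 54232 genes listed for each library. They were chosen by name, as the rows of the count tables whose Ensembl mouse identifier carries a symbol on a fixed list of collagen chains. Values for the family cover the genes on this list alone. All 38 passed the filter on low counts, which left 17299 genes to test. They were grouped into 8 basement membrane chains (Col4a1 to Col4a6, Col15a1 and Col18a1), 11 fibrillar chains and 8 fibril-associated chains. A further 4 formed a neuronal and transmembrane class, labelled neuronal in the figures: the transmembrane collagens Col13a1, Col23a1 and Col25a1, with Col19a1. The other 7 were the chains of beaded filaments, networks and anchoring fibrils, and Col26a1. RNA was sequenced from wild-type cortical neurons of CD1 mice, an outbred stock, in 6 libraries. The PA + PS2 group, whose library names carry IKVAV with PEDOT-S, the PA group, whose names carry IKVAV, and the control group, whose names carry PDL, each had a repeat 1 and a repeat 2. A peptide amphiphile (PA) is a peptide joined to a lipid tail that assembles into fibres, IKVAV is a laminin-derived peptide sequence, and PEDOT is a conducting polymer; the labels do not spell out PS2 or PDL. The treatment label reads peptide amphiphile in all 6 libraries, the control included, and nothing read here states the age of the mice, the culture time or a dose.

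Collagens are secreted or membrane-bound proteins whose chains wind into a triple helix of repeated glycine-led triplets, after prolines and lysines have been hydroxylated in the endoplasmic reticulum. Type IV chains assemble into the mesh of basement membranes together with laminins, nidogen and perlecan, while fibrillar chains build the fibres of connective tissue. In the brain, collagens are known chiefly from the basement membranes of blood vessels and of the pial surface, and a few members are made by neurons and act at axons and synapses.

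Library totals ran from 30714311 to 33923681 counts, and levels are given as CPM, counts scaled to library size, where 1 CPM stood for 30.7 to 33.9 counts. Neuronal markers (Map2, Tubb3, Rbfox3 and the rest of an 8-gene list) were all measured, and summed to 5580 and 5164 CPM in PA + PS2, 5393 and 5535 CPM in PA and 5306 and 5670 CPM in the control. RNA of other cell types was present too, as described with the first comparison. Libraries also differed by repeat number, along the leading principal component, in all 3 groups. Nothing in the labels shows that the repeats came from different cultures or animals, and the p-values therefore cover the spread among these libraries alone, which may be technical.

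Collagen messages made up a small part of these libraries. All 38 genes together took 0.0352% and 0.0198% of counts in PA + PS2 repeats 1 and 2, 0.0512% and 0.0351% in PA and 0.0469% and 0.0470% in the control. PA + PS2 repeat 2 was thus the lowest library and PA repeat 1 the highest, and PA + PS2 repeat 1 lay beside PA repeat 2. Per length, in RPKM, which also divides by exon length, the order was led by the basement membrane pair Col4a1 (mean level 8.29 RPKM over the 6 libraries, range 3.98 to 11.9) and Col4a2 (8.06 RPKM, 5.33 to 9.68). The ranges of this pair overlapped, and which chain was higher depended on the group. Their ratio within a library was 0.713 and 0.748 in PA + PS2, and 1.01 to 1.24 in PA and control. Col5a2, a chain that regulates fibril assembly, followed at 4.24 RPKM (1.42 to 6.44), and Col1a1, the main chain of type I fibrils, at 4.13 RPKM (0.816 to 6.18), again with overlapping ranges. Col11a2 (2.13 RPKM), Col18a1 (2.08 RPKM) and Col26a1 (1.98 RPKM) came next, and the lowest members were Col24a1 (0.0552 RPKM) and Col4a3 (0.0542 RPKM). In the neuronal and transmembrane class, Col25a1 (1.28 RPKM), Col19a1 (1.08 RPKM) and Col23a1 (0.930 RPKM) sat in the middle of the order. Col13a1 was near the bottom at 0.0846 RPKM.

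**Figure D1:**
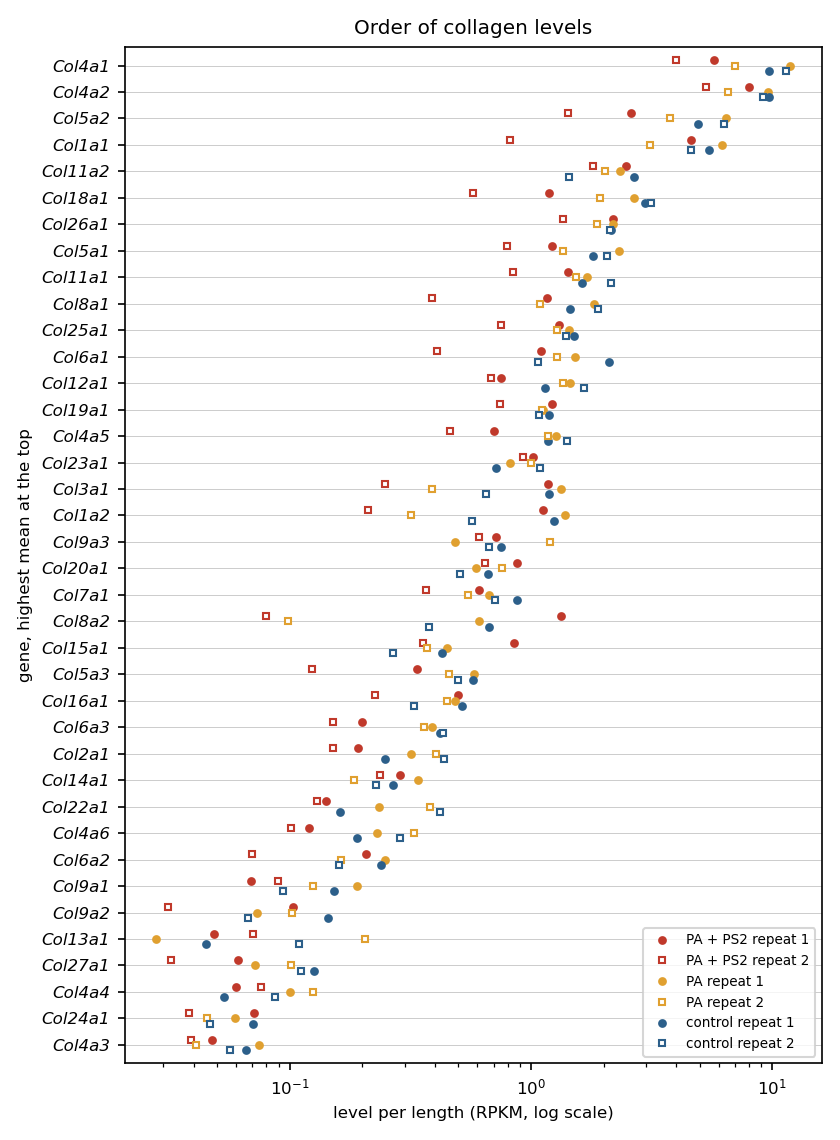
Level per length of each collagen gene in every library, in RPKM on a log scale, with genes ordered by their mean. Filled circles are repeat 1 and open squares repeat 2. For most genes in the upper part of the plot the leftmost point is PA + PS2 repeat 2, as for Col5a2, Col1a1 and Col18a1.

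The first comparison asks how collagen RNA in neurons cultured with PA + PS2 differed from the control. Most collagens were lower in PA + PS2: the log2 fold change was below 0 for 32 of 38 genes, with a median of -0.58 over the family, against 0.01 over all 17299 genes. Within repeat 1 the family's median log2 ratio was -0.23, and within repeat 2 it was -1.20. Both PA + PS2 libraries lay below both control libraries for 20 of 38 collagens, against 17.1% of all genes, and for no collagen did both lie above, against 16.6% of all genes. In 27 of 38 collagens the ratio was below 0 in both repeats, against 28.0% of all genes. In bulk RNA such as this, fewer cells of a type and less RNA per cell cannot be told apart.

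No gene passed edgeR's quasi-likelihood test without the repeat number in the model (0 of 17299, 0%, smallest Benjamini-Hochberg adjusted p = 0.270), while 1179 genes had an unadjusted p under 0.05 and DESeq2 called 130 (0.751%). With the repeat number as a block, 4 of 38 collagens fell, against 0.538% of all genes (93 genes), and none rose, against 0.139% (0.676% in either direction). They were Col18a1 (adjusted p = 0.0107), Col12a1 (0.0351), Col4a5 (0.0423) and Col6a3 (0.0423). DESeq2 without a block also called 4 collagens, the same genes, against 0.636% of all genes lower and 0.116% higher. The calls depended on repeat 2 libraries: with the block, no gene and no collagen passed without PA + PS2 repeat 2 or without control repeat 2, whereas 10 of 38 collagens passed without PA + PS2 repeat 1, where 522 of 18359 genes passed. There were 7 of 38 without PA repeat 1 (503 of 18459 genes), 8 of 38 without PA repeat 2 (560 of 18250 genes) and 6 of 37 without control repeat 1 (61 of 18245 genes). The family's median was -0.29 without PA + PS2 repeat 2 and -1.17 without PA + PS2 repeat 1.

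**Figure D2:**
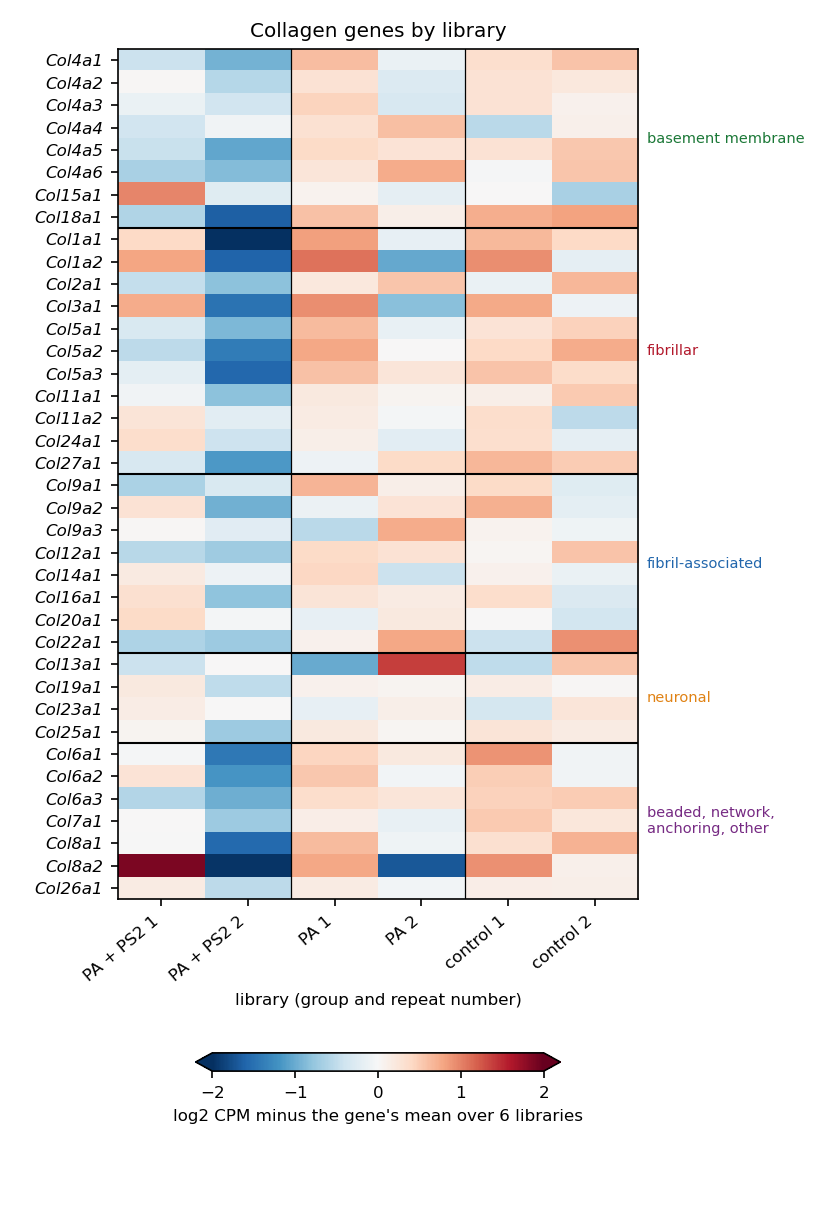
Each collagen gene in each library, as log2 CPM minus that gene's mean over the 6 libraries (colour, limited to 2 either side of 0). Columns are libraries by group and repeat, and black lines part the 5 classes. PA + PS2 repeat 2 is the lowest of the 6 libraries for 29 of 38 genes, with a median deviation of -0.81.

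**Figure D3:**
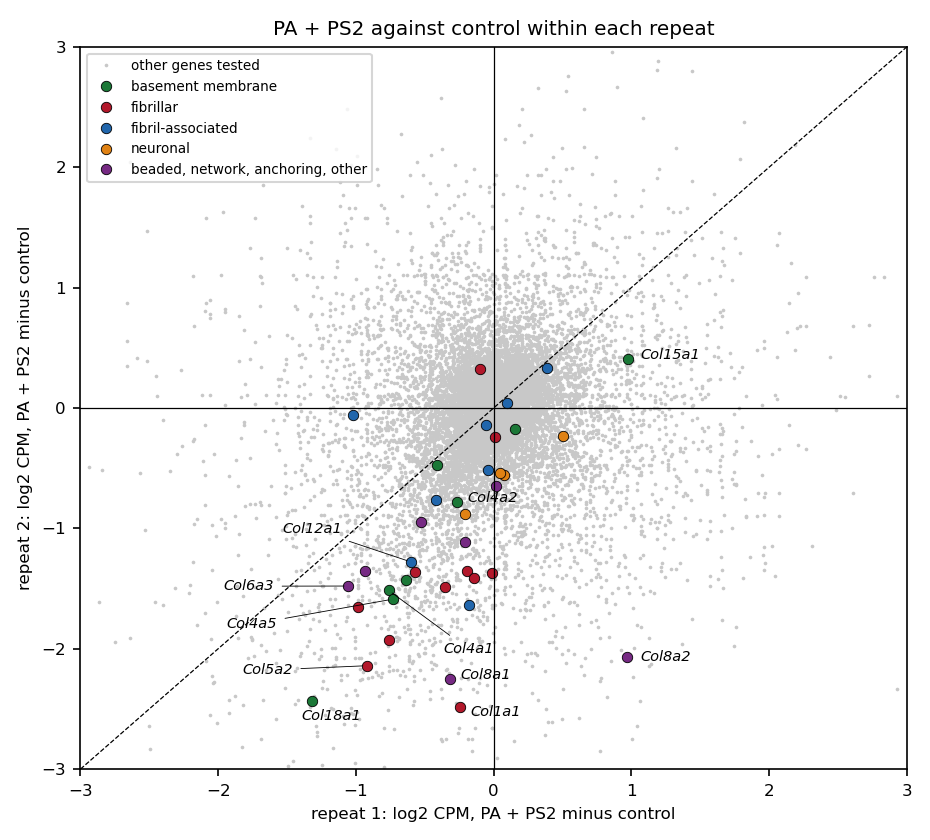
Log2 CPM of PA + PS2 minus control in repeat 1 (x axis) and repeat 2 (y axis) for each gene tested, with collagens coloured by class; 50 genes outside the axes, none of them a collagen, are not drawn. Points in the lower left quadrant are lower in PA + PS2 in both repeats, and points below the dashed line had the more negative value in repeat 2.

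Markers of several cell types that make collagens were also lower in PA + PS2 than in the control, as list sums. Mural cell markers, of which 6 of 8 passed the filter, summed to 43.4 and 29.5 CPM in PA + PS2, 103 and 71.3 CPM in PA and 70.6 and 110 CPM in the control, and most of that sum was Acta2; Kcnj8 was at 0 in PA + PS2 and PA. Endothelial markers, 4 of 8 past the filter, summed to 5.70 and 5.23 CPM in PA + PS2, 11.4 and 7.13 CPM in PA and 9.59 and 7.98 CPM in the control, with Cdh5 at 0 in 4 of 6 libraries and Cldn5 at no more than 1 count in any. Fibroblast and meningeal markers, 7 of 8 past the filter, summed to 7.77 and 4.22 CPM in PA + PS2, 8.10 and 11.2 CPM in PA and 10.99 and 9.79 CPM in the control, and Slc6a13 was at 0 in all 6. Most of the fibroblast and meningeal sum was Dcn in all 6 libraries. The sums of all 3 lists were lower in both PA + PS2 libraries than in both control libraries, but not all members were: the log2 fold change against control was below 0 for 4 of 6 mural, 4 of 4 endothelial and 4 of 7 fibroblast and meningeal markers. Radial glia and progenitor markers (8 of 8 past the filter) summed to 217 and 246 CPM in PA + PS2, 337 and 597 CPM in PA and 285 and 472 CPM in the control. Astrocyte markers (7 of 7) summed to 29.9 and 42.6 CPM in PA + PS2, 56.3 and 188 CPM in PA and 44.2 and 99.2 CPM in the control, and oligodendrocyte precursor markers (4 of 4) to 5.45 and 3.93 CPM, 13.9 and 62.4 CPM and 20.8 and 42.6 CPM in the same order. Microglial markers, 4 of 6 past the filter, stayed between 2.96 and 5.08 CPM in the 6 libraries. Cell cycle genes (8 of 8) summed to 68.7 and 74.7 CPM in PA + PS2. Their sums were 119 and 228 CPM in PA and 103 and 174 CPM in the control. Oligodendrocyte markers (5 of 5) ran the other way, at 64.4 and 93.5 CPM, 48.0 and 37.0 CPM and 37.9 and 34.1 CPM. Astrocyte, radial glia and cell cycle sums did not follow the collagens library by library. These sums were lowest in PA + PS2 repeat 1, whereas the collagen share was lowest in the other PA + PS2 library. They were highest in the PA library with the lower collagen share. Mural, endothelial, fibroblast and meningeal, and oligodendrocyte precursor sums were lowest in PA + PS2 repeat 2, as the collagen share was. Of these, only the endothelial sum was also highest in PA repeat 1, where the collagen share was highest. The part of these markers in the collagen values was not tested.

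Among basement membrane chains, 7 of 8 had a log2 fold change below 0 for PA + PS2 against control. The median was -0.80 (-0.52 within repeat 1 and -1.11 within repeat 2). For 6 of 8 the PA + PS2 values were lower without overlap, against 17.1% of all genes. Both called members of the class, Col18a1 and Col4a5, fell with the block. Col18a1 (ENSMUSG00000001435, chr10:77052178-77166548 on GRCm38), whose C-terminal fragment is endostatin, had 8.31 and 4.03 CPM in PA + PS2, 18.8 and 13.6 CPM in PA and 20.8 and 22.1 CPM in the control. Both PA + PS2 libraries lay below all 4 others, and the PA + PS2 mean was 28.8% of the control mean. Its log2 fold change against control was -1.79 (SE 0.29, adjusted p = 0.427), and with the repeat block -1.82 (SE 0.22, edgeR adjusted p = 0.0107). Col4a5 (ENSMUSG00000031274, chrX:141475385-141689234), a type IV chain of kidney and other specialised basement membranes that is mutated in Alport syndrome, had 4.75 and 3.12 CPM in PA + PS2, 8.52 and 7.89 CPM in PA and 7.92 and 9.49 CPM in the control. The PA + PS2 libraries were again the lowest pair, and the log2 fold change against control was -1.14 (SE 0.24, adjusted p = 0.473), or -1.15 (SE 0.22, edgeR adjusted p = 0.0423) with the block.

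Col4a1 and Col4a2, which form the standard type IV trimer of nearly all basement membranes, lie head to head on chromosome 8 (chr8:11198423-11312826 on the minus strand and chr8:11312805-11449287 on the plus strand). Their annotated first exons overlap by 22 bases, and since no source used here says that counting used strand, reads there cannot be told apart. Col4a1 had 42.8 and 29.7 CPM in PA + PS2, 88.6 and 52.4 CPM in PA and 72.6 and 85.2 CPM in the control, with no overlap between PA + PS2 and either other group. Col4a2 had 53.3 and 35.3 CPM in PA + PS2, 63.8 and 43.2 CPM in PA and 64.1 and 60.7 CPM in the control. For this partner the PA + PS2 values lay below the control values but within reach of PA repeat 2. The log2 fold change against control was -1.12 (SE 0.30) for Col4a1 and -0.49 (SE 0.24) for Col4a2, and neither passed in edgeR (adjusted p = 0.597 and 0.795). Col15a1, the relative of Col18a1, did not share the direction: it had 5.38 and 2.27 CPM in PA + PS2, 2.84 and 2.37 CPM in PA and 2.71 and 1.70 CPM in the control, with overlapping groups and a log2 fold change of 0.80 (SE 0.44, edgeR adjusted p = 0.826). The partners of the other type IV chains were scarce. Col4a6 ran from 0.812 to 0.956 CPM in PA + PS2, 1.84 to 2.62 CPM in PA and 1.52 to 2.29 CPM in the control, without overlap between PA + PS2 and the others, and Col4a3 and Col4a4 stayed between 0.390 and 1.32 CPM in every library.

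The start regions of these chains are shown because Col4a1 and Col4a2 share theirs and because Col18a1 and Col4a5 fell with the block. RefSeq promoter windows (250 bases before to 50 bases after an annotated start, GRCm38.p6) were found for 29 of 38 members, as 32 windows. Capitals mark matches, on either strand, to the GC box GGGCGG, to CCAAT and to GGAATG, the letters bound by TEAD factors; TATAAA and the AP-1 motif TGANTCA were searched as well and are not in these windows. The windows are, on the strand of the gene, Col4a1 at chr8:11312777-11313076 (minus), Col4a2 at chr8:11312555-11312854 (plus), Col18a1 at its upstream start, chr10:77166481-77166780 (minus), and at its downstream start, chr10:77113656-77113955 (minus), and Col4a5 at chrX:141475169-141475468 (plus).
Col4a1: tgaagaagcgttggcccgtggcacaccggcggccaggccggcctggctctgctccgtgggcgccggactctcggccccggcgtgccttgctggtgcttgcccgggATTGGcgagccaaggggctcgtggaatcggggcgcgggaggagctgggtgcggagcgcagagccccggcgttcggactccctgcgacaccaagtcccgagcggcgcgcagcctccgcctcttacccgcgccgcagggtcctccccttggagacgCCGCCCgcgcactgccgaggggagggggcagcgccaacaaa
Col4a2: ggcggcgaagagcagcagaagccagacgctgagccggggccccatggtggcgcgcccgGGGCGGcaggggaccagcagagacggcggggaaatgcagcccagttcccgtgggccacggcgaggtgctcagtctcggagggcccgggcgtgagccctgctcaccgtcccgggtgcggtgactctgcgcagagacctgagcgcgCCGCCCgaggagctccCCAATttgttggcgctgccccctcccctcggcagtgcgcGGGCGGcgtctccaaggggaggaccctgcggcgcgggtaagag
Col18a1 upstream start: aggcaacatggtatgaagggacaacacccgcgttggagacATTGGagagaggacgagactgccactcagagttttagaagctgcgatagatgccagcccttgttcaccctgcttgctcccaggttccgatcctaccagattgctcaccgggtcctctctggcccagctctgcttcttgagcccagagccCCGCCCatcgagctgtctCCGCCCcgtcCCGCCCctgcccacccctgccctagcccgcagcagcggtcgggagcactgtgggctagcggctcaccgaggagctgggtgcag
Col18a1 downstream start: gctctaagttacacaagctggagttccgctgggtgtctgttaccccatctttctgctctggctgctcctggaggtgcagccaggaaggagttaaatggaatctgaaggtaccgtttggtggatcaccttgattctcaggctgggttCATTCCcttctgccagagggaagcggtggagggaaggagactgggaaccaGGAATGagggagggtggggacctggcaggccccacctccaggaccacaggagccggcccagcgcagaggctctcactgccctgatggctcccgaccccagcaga
Col4a5: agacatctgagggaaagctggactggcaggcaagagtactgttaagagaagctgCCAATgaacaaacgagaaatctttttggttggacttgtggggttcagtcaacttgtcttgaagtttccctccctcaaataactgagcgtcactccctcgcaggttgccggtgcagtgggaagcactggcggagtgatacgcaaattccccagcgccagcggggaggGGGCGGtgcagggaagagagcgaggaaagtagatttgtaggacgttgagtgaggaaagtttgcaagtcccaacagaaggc
The Col4a1 and Col4a2 windows share 78 bases, with starts 21 bases apart, and the shared stretch holds 1 GGGCGG match, read on opposite strands by the pair. Of the 32 collagen windows 62.5% held GGGCGG, against 35.7% of all 32851 windows of the same length, and 34.4% held CCAAT, against 37.4%. GGAATG was in 15.6% of collagen windows and 14.7% of all, TATAAA in 9.38% and 13.6%, and TGANTCA in 3.13% and 7.81%. No motif contains another. The deposited counts are per gene, so they do not show which Col18a1 start was used, and a match describes letters, not binding.

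Fibrillar chains were lower in PA + PS2 than in the control for 10 of 11 members, with a median log2 fold change of -0.89 and within-repeat medians of -0.25 and -1.41. Groups did not overlap for 7 of them, all lower in PA + PS2, against 17.1% of all genes. None was called in edgeR with or without the block. Of the 7, Col1a1 was parted only narrowly, at 30.26 CPM in PA + PS2 repeat 1 and 30.33 CPM in control repeat 2. Type V chains, which nucleate and limit the growth of type I fibrils, were among the 7. Col5a2 had 24.97 and 13.6 CPM in PA + PS2, 61.7 and 36.0 CPM in PA and 47.3 and 60.4 CPM in the control. Col5a1 had 10.4 and 6.78 CPM in PA + PS2, 19.7 and 11.5 CPM in PA and 15.4 and 17.5 CPM in the control, and Col5a3 had 2.29 and 0.844 CPM, 3.97 and 3.12 CPM and 3.93 and 3.39 CPM in the same order. All 3 type V genes had both PA + PS2 libraries below the other 4. Their log2 fold changes against control were -1.48 (SE 0.38) for Col5a2, -0.94 (SE 0.29) for Col5a1 and -1.22 (SE 0.41) for Col5a3, with edgeR adjusted p-values of 0.606, 0.644 and 0.646.

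The chains of type I and III collagen, the main fibrils of connective tissue, depended on the repeat. Col1a1 had 30.3 and 5.36 CPM in PA + PS2, 40.5 and 20.4 CPM in PA and 35.9 and 30.3 CPM in the control. Col1a2 had 13.95 and 2.63 CPM in PA + PS2, 17.3 and 3.94 CPM in PA and 15.4 and 7.11 CPM in the control, and Col3a1 had 11.5 and 2.43 CPM, 13.1 and 3.82 CPM and 11.6 and 6.40 CPM. In repeat 1 the log2 ratio of PA + PS2 to control was -0.25 for Col1a1, -0.14 for Col1a2 and -0.01 for Col3a1, and in repeat 2 it was -2.50, -1.44 and -1.39. None of the 3 was called (edgeR adjusted p = 0.941 for Col1a1, 0.989 for Col1a2 and 0.989 for Col3a1).

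Cartilage-type fibrillar chains were mixed. Col2a1, the type II chain, had 1.78 and 1.40 CPM in PA + PS2, 2.94 and 3.72 CPM in PA and 2.29 and 4.02 CPM in the control, without overlap, and its log2 fold change was -0.99 (SE 0.39, edgeR adjusted p = 0.690). Col11a1 had 18.1 and 10.7 CPM in PA + PS2, 21.7 and 19.7 CPM in PA and 20.7 and 27.5 CPM in the control, also without overlap, with a log2 fold change of -0.74 (SE 0.25, edgeR adjusted p = 0.659). Col11a2, its partner in type XI trimers, had 17.1 and 12.4 CPM in PA + PS2, 16.1 and 13.97 CPM in PA and 18.3 and 9.91 CPM in the control, where the groups overlapped throughout. The low members Col24a1 and Col27a1 ran from 0.292 to 1.64 CPM over the 6 libraries, and both PA + PS2 values of Col27a1 lay below the other 4.

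**Figure D4:**
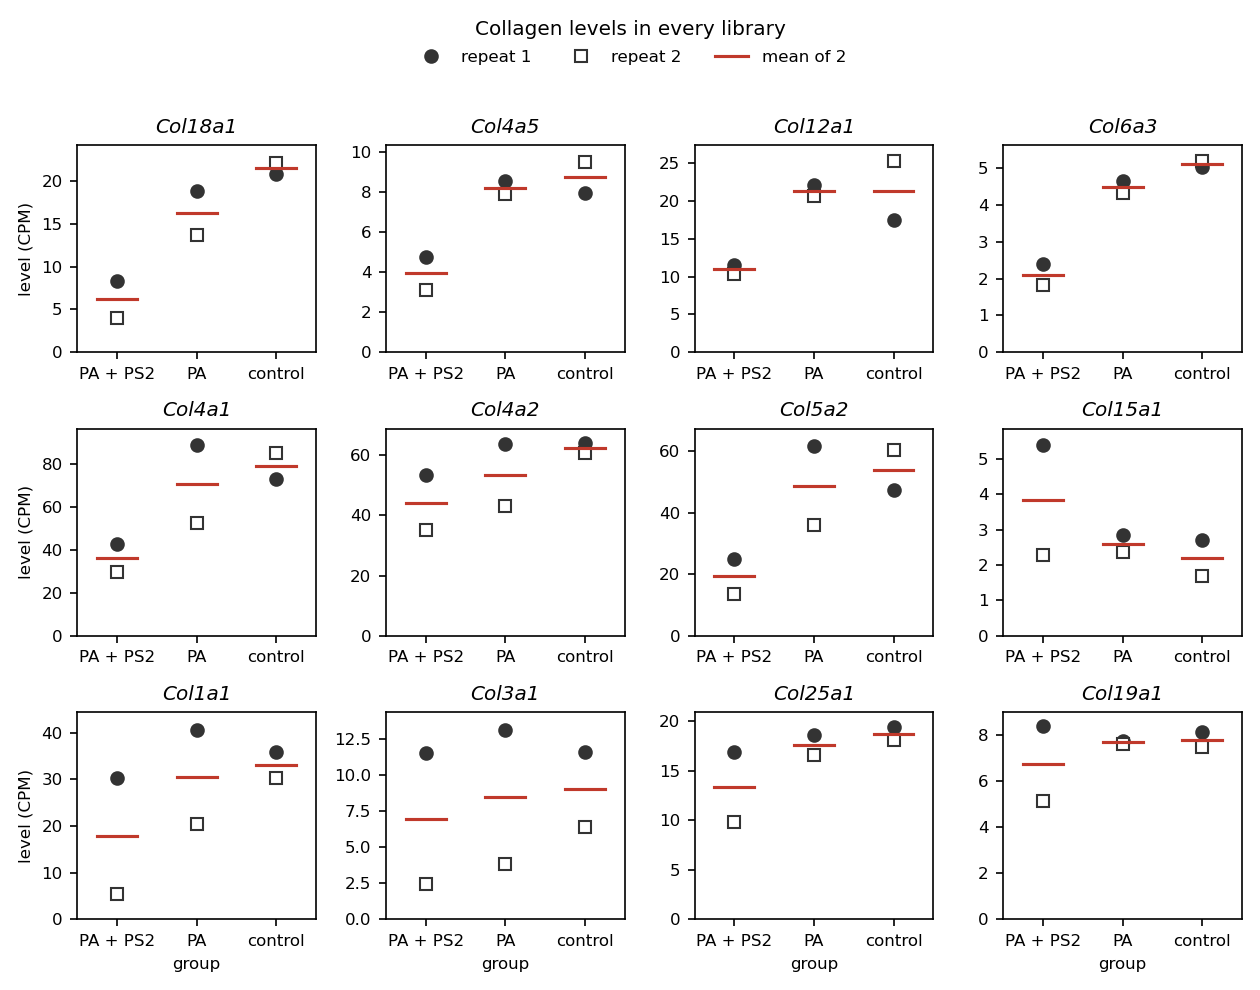
Level in CPM (y axis, from 0) of 12 collagen genes in PA + PS2, PA and control. Filled circles are repeat 1, open squares repeat 2 and red lines the mean of 2 libraries. The 4 genes of the top row fell against control with the repeat block, while Col1a1 and Col3a1 are split by repeat in each group.

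Of the fibril-associated chains, which sit on the surface of fibrils, 6 of 8 had a log2 fold change below 0 and the median was -0.42, with within-repeat medians of -0.12 and -0.33. Col12a1 (ENSMUSG00000032332, chr9:79598991-79718831) was the called member, with 11.5 and 10.4 CPM in PA + PS2, 22.1 and 20.7 CPM in PA and 17.4 and 25.3 CPM in the control. The PA + PS2 repeats lay close together and below the other 4 libraries, at a mean of 10.9 ± 0.786 CPM in PA + PS2 and 21.4 ± 5.55 CPM in the control (SD, n = 2 each). The log2 fold change was -0.97 (SE 0.19, edgeR adjusted p = 0.451), or -0.96 (SE 0.17, adjusted p = 0.0351) with the block. Col22a1, a chain of tissue junctions, had 1.31 and 1.20 CPM in PA + PS2, 2.16 and 3.501 CPM in PA and 1.49 and 3.87 CPM in the control, with a log2 fold change of -1.09 (SE 0.54, edgeR adjusted p = 0.778). The other members overlapped between PA + PS2 and control or were scarce. Col20a1 had 4.49 and 3.31 CPM in PA + PS2, 3.03 and 3.91 CPM in PA and 3.42 and 2.62 CPM in the control. Col9a3 had 2.77 and 2.34 CPM in PA + PS2, 1.87 and 4.64 CPM in PA and 2.89 and 2.59 CPM in the control, and Col16a1 had 3.38 and 1.53 CPM, 3.26 and 3.03 CPM and 3.48 and 2.20 CPM. Col9a3 shares 234 exon bases with Tcfl5 on the opposite strand and Col20a1 shares 79 with a neighbour on its own strand, so their values are uncertain. Col14a1, Col9a1 and Col9a2 stayed between 0.0974 and 2.39 CPM.

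The neuronal and transmembrane class had a median log2 fold change of -0.29 over 4 genes, with within-repeat medians of 0.06 and -0.55. Col25a1, a transmembrane collagen that motor axons need to innervate muscle, had 16.8 and 9.77 CPM in PA + PS2, 18.6 and 16.6 CPM in PA and 19.4 and 18.1 CPM in the control. Its PA + PS2 values lay below both control values, and the log2 fold change was -0.49 (SE 0.23, edgeR adjusted p = 0.763). Col19a1, made by interneurons and known for a role in synapse formation, had 8.41 and 5.13 CPM in PA + PS2, 7.74 and 7.63 CPM in PA and 8.16 and 7.47 CPM in the control, and Col23a1, another transmembrane chain, had 5.86 and 5.32 CPM, 4.71 and 5.74 CPM and 4.11 and 6.25 CPM. Both overlapped between the groups. Col13a1, the transmembrane collagen of the neuromuscular junction, was scarce, at 0.129 to 0.946 CPM, with both extremes in PA. Whether this class differed less than the other classes was not tested.

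Among the 7 remaining chains 6 had a log2 fold change below 0, with a median of -0.70, and Col6a3 was the called member. Col6a3 (ENSMUSG00000048126, chr1:90765923-90843971), the large chain of type VI beaded filaments, had 2.39 and 1.82 CPM in PA + PS2, 4.65 and 4.32 CPM in PA and 5.03 and 5.18 CPM in the control. Both PA + PS2 libraries lay below the other 4, and the log2 fold change was -1.28 (SE 0.26, edgeR adjusted p = 0.466), or -1.28 (SE 0.25, adjusted p = 0.0423) with the block. Col6a1, its partner chain, had 4.81 and 1.79 CPM in PA + PS2, 6.65 and 5.61 CPM in PA and 9.26 and 4.67 CPM in the control. PA + PS2 repeat 1 overlapped control repeat 2 here, and the log2 fold change was -1.07 (SE 0.48, edgeR adjusted p = 0.754). Col8a1, a short-chain network collagen, had 9.11 and 3.05 CPM in PA + PS2, 14.2 and 8.55 CPM in PA and 11.3 and 14.8 CPM in the control, with a log2 fold change of -1.10 (SE 0.47, edgeR adjusted p = 0.751). Its partner Col8a2 varied more between repeats than between groups, with 5.96 and 0.357 CPM in PA + PS2, 2.74 and 0.442 CPM in PA and 3.01 and 1.70 CPM in the control. Col7a1, the chain of anchoring fibrils, had 6.27 and 3.77 CPM in PA + PS2, 6.87 and 5.65 CPM in PA and 9.05 and 7.32 CPM in the control, with a log2 fold change of -0.70 (SE 0.27, edgeR adjusted p = 0.688). Its PA + PS2 values did not overlap the control. Col26a1 had 17.8 and 11.1 CPM in PA + PS2, 18.0 and 15.4 CPM in PA and 17.6 and 17.4 CPM in the control, with overlapping groups, and Col6a2 ran from 0.584 to 2.07 CPM.

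The second comparison asks what PS2 added to PA, and collagens were again mostly lower in PA + PS2. The log2 fold change against PA was below 0 for 33 of 38 genes, with a median of -0.54 over the family and 0.00 over all genes, and the within-repeat medians were -0.26 and -0.84. Both PA + PS2 libraries lay below both PA libraries for 16 of 38 collagens, against 18.4% of all genes, and in no collagen did both lie above, against 16.7%. In 26 of 38 the ratio was below 0 in both repeats, against 27.7% of all genes. Basement membrane chains had a median of -0.84, with -0.76 and -0.74 within repeats 1 and 2, and fibrillar chains a median of -0.77, with -0.31 and -0.87. This comparison shares the PA + PS2 libraries with the first, and the PA and control libraries recur in the third, so the 3 are not independent.

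Without the block edgeR called no gene between PA + PS2 and PA (0 of 17299, 0%, smallest adjusted p = 0.360, 1314 genes at an unadjusted p under 0.05), and DESeq2 called 200 (1.16%). With the block 3 of 38 collagens fell, against 1.39% of all genes (241 genes), and none rose, against 0.225%. They were Col18a1, with a log2 fold change in that fit of -1.40 (SE 0.23, edgeR adjusted p = 0.0178), Col12a1 at -0.97 (SE 0.17, adjusted p = 0.0178) and Col4a5 at -1.06 (SE 0.23, adjusted p = 0.0393). Without the block the values were -1.39 (SE 0.30), -0.97 (SE 0.20) and -1.06 (SE 0.25). Col6a3, at -1.09 (SE 0.27) without the block, missed the threshold with the block (adjusted p = 0.0618) and passed in DESeq2 (0.0431), where 4 collagens were called, against 1.01% of all genes lower and 0.15% higher. Without PA + PS2 repeat 2 no gene and no collagen passed with the block, and without PA + PS2 repeat 1 there were 7 of 38 collagens, where 608 of 18359 genes passed. Without PA repeat 1 there were 2 of 38 collagens among 626 of 18459 genes, a share of collagens near that of all genes, and without PA repeat 2 there were 2 of 38 among 96 of 18250 genes. Without control repeat 1 there were 4 of 37 collagens (132 of 18245 genes), and without control repeat 2 there were 4 of 38 (102 of 18273 genes). The median was -1.11 without PA + PS2 repeat 1 and -0.21 without PA + PS2 repeat 2. Col4a1 had a log2 fold change of -0.96 (SE 0.30, adjusted p = 0.548), and Col5a2 of -1.34 (SE 0.39, adjusted p = 0.531) in edgeR.

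The third comparison, PA against control, gave a family median close to 0, though repeats and classes differed in direction. The median log2 fold change was -0.08, with 0.06 within repeat 1 and -0.14 within repeat 2, and 23 of 38 genes were below 0. Its sign was not stable: the median was 0.02 without PA repeat 2. Basement membrane chains had a median of -0.09 (0.14 and -0.34 within repeats 1 and 2). Fibrillar chains had -0.09 (0.16 and -0.48), with 9 of 11 below 0. Fibril-associated chains had 0.11 (0.10 and 0.41), with 7 of 8 above 0. The median was -0.005 in the neuronal and transmembrane class and -0.19 in the remaining chains. PA values lay below the control without overlap for 4 of 38 collagens (Col18a1, Col6a3, Col7a1 and Col27a1), against 9.69% of all genes, and above it for 1 (Col4a4), against 12.1%; Col27a1 and Col4a4 are named after their values were seen. Col18a1 had a log2 fold change of -0.40 (SE 0.25) and Col7a1 of -0.39 (SE 0.26). No gene passed in edgeR without the block (0 of 17299, 0%, smallest adjusted p = 1.00, 138 genes at an unadjusted p under 0.05), with it (0 genes, 323 at an unadjusted p under 0.05) or in DESeq2 (0 genes, 62). A missed threshold at this spread does not show that PA and control were alike.

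The repeat number moved many collagens in every group. Repeat 1 was above repeat 2 in all 3 groups for 18 of 38 collagens (47.4%), against 19.9% of all genes. The reverse held for 2 of 38 (5.26%, Col13a1 and Col4a4), also against 19.9% of all genes. Among the type I and III chains, Col1a1, Col1a2 and Col3a1 summed to 55.7 and 10.4 CPM in PA + PS2 repeats 1 and 2, 70.9 and 28.2 CPM in PA and 62.9 and 43.8 CPM in the control. The fibroblast and meningeal markers did not share this order as a list, since their sum was higher in repeat 2 of PA. Dcn, their most abundant member, had 4.01 and 3.18 CPM in PA + PS2, 4.26 and 9.34 CPM in PA and 7.20 and 7.14 CPM in the control. Igf2, a single member named after its values were seen, was higher in repeat 1 of each group. It had 1.62 and 0.0325 CPM in PA + PS2, 1.00 and 0.0631 CPM in PA and 0.982 and 0.0893 CPM in the control. With 1 CPM at 30.7 to 33.9 counts, its repeat 2 values rest on a few counts, and it does not stand for the list. The part of these markers in the collagen values was not tested. The type IV pair Col4a1 and Col4a2 summed to 96.1 and 65.0 CPM in PA + PS2, 152 and 95.6 CPM in PA and 137 and 146 CPM in the control, where repeat 1 was the higher only in PA + PS2 and PA.

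Genes that fold, process, bind and accompany collagens were counted from lists, each beside its own median. Over all genes tested, 48.1% had a log2 fold change below 0 for PA + PS2 against control. With the block 0.538% of all genes fell in that comparison, and DESeq2 called 0.636% lower. Of 20 genes for folding, hydroxylation and glycosylation, 16 had a log2 fold change below 0 for PA + PS2 against control, with a median of -0.23, and none was called with the block. Serpinh1, the collagen-specific chaperone, had 16.6 and 8.99 CPM in PA + PS2, 34.9 and 32.6 CPM in PA and 25.4 and 38.3 CPM in the control; DESeq2 called it (adjusted p = 0.00177), edgeR did not (0.529). The most abundant member, P4hb, a subunit of prolyl hydroxylase, stayed between 186 and 213 CPM in all 6 libraries. Of 14 processing and cross-linking genes tested, 11 lay below 0, with a median of -0.69, and Loxl2, a lysyl oxidase, fell with the block (adjusted p = 0.0389), at 3.47 and 1.56 CPM in PA + PS2, 9.07 and 4.01 CPM in PA and 8.10 and 8.13 CPM in the control. Bmp1, which trims procollagen ends, had 39.8 and 33.9 CPM in PA + PS2, 37.2 and 33.4 CPM in PA and 38.7 and 34.4 CPM in the control.

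Of 11 receptor genes tested, 8 lay below 0 against control, where 48.1% of all genes did, with a median of -0.54. Itgb1 and Adgrg1 fell with the block. Of all genes, 0.538% fell with the block against control and 1.39% against PA, and DESeq2 called 0.636% and 1.01% lower. Itgb1, the beta chain of collagen-binding integrins, had 83.3 and 83.4 CPM in PA + PS2, 121 and 129 CPM in PA and 109 and 132 CPM in the control (edgeR adjusted p = 0.0183 against control and 0.00581 against PA). Adgrg1, an adhesion receptor for type III collagen in the developing cortex, had 136 and 130 CPM in PA + PS2, 170 and 219 CPM in PA and 180 and 191 CPM in the control (edgeR adjusted p = 0.0489 and 0.0175). In both genes the PA + PS2 libraries were the lowest pair. Ddr2, a receptor kinase for fibrillar collagen, had 4.68 and 4.74 CPM in PA + PS2, 10.6 and 10.7 CPM in PA and 7.23 and 8.39 CPM in the control, and fell with the block against PA (edgeR adjusted p = 0.00777) but did not pass against control (0.107). Of 18 other basement membrane and collagen-binding genes, 16 lay below 0 against control, with a median of -0.83. Lamc1, the gamma chain of most laminins, fell with the block in both comparisons (edgeR adjusted p = 0.0278 against control and 0.0196 against PA), at 41.9 and 39.6 CPM in PA + PS2, 58.5 and 61.6 CPM in PA and 55.1 and 68.3 CPM in the control. Lamb2, a laminin beta chain, fell with the block against PA (adjusted p = 0.0198), at 4.40 and 2.47 CPM in PA + PS2, 8.29 and 12.02 CPM in PA and 7.11 and 9.44 CPM in the control. DESeq2 without the block called Lamb2 lower both against control and against PA, and Lamc1 likewise. Sparc, a collagen-binding matrix protein, had 41.7 and 24.5 CPM in PA + PS2, 98.8 and 68.7 CPM in PA and 77.8 and 101 CPM in the control, without overlap, and passed against control in DESeq2 (adjusted p = 0.0424) but not in edgeR. So did Lama5, a laminin alpha chain (DESeq2 adjusted p = 0.0195), at 4.40 and 2.30 CPM in PA + PS2, 7.45 and 7.32 CPM in PA and 6.91 and 11.04 CPM in the control. Nid1, the gene of nidogen, which links laminin to type IV collagen, passed against PA in DESeq2 alone (adjusted p = 0.0402), at 5.70 and 2.17 CPM in PA + PS2, 11.6 and 9.24 CPM in PA and 7.80 and 10.001 CPM in the control. Agrn, the agrin gene, was the most abundant of the list at 428 and 319 CPM in PA + PS2, 380 and 340 CPM in PA and 433 and 336 CPM in the control, where the groups overlapped.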

How the data were processed

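RNA-seq of mouse cortical neurons was deposited as raw counts per Ensembl gene, 1 library per file, per the file headers; the values are whole numbers. Tools listed in the submitters' processing notes are STAR 2.7.5 and HTSeq 2.0.2, with cutadapt 4.2 and DESeq2 1.14.1, and the build is mm10. Their settings, whether counting used strand, and the annotation release: not given in the sources used here. The labels' protocols name a total RNA library kit, but the molecule field reads polyA RNA.

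From the counts, edgeR 4.0.16 (R 4.3.3) with TMM scaling, filterByExpr and a robust quasi-likelihood fit, all 6 libraries in 1 model with 3 residual degrees of freedom, tested 17299 genes, with Benjamini-Hochberg adjusted p under 0.05 over all of them as the threshold. The fit with the repeat number as a replicate block kept 2 residual degrees of freedom. Whether numbers pair libraries was read from repeat 1 minus repeat 2 differences. These correlated at 0.36 between PA + PS2 and control, 0.21 between PA + PS2 and PA and 0.35 between PA and control. The pairing comes from the data, since no label ties a number to a litter, batch or day. Library names carry the same T number in every repeat 1, but a different T number for each group in repeat 2. What the T numbers mean is not stated, so the block may join repeat 2 libraries that do not belong together. CPM values are TMM-scaled, and within-repeat medians use log2 CPM with a prior count of 2. RPKM used exon unions of GENCODE M21 (GRCm38). Fold changes qualified for printing in collagens with a mean of at least 2 CPM whose estimate exceeded 1.5 SE or that passed with the block. For PA + PS2 against PA, 14 collagens qualified and only some of these are printed. Other members are given by levels. Pathway genes are named where called with the block or in DESeq2, and some where among the most abundant of their list. Repeats of a group were not copies of 1 library: their counts gave a chi-square of 15.6 to 22.5 per degree of freedom. Scripts were tested on simulated data. Alternatives were RLE, library totals, no filter, DESeq2 1.42.0, a filter of 50 counts in at least 2 libraries, voom in limma 3.58.1, only the 2 groups compared, the block, each library left out, and, chosen after seeing the data, edgeR's legacy quasi-likelihood. Members and gene lists were chosen with earlier results of these data known.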

Additional observations from a re-analysis of the deposited data

How the results depend on the processing

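The median log2 fold change of the collagens kept its direction in PA + PS2 against control and against PA under every alternative run. Leaving out 1 library at a time, with or without the block, gave -1.17 to -0.29 against control, -1.11 to -0.20 against PA (where it was -1.03 with the block and without PA + PS2 repeat 1) and -0.29 to 0.17 for PA against control (-0.23 without PA repeat 1). Collagens called, 0 in edgeR without the block, numbered 4 against control and 3 against PA with the block, 4 and 4 in DESeq2, 8 and 4 with the block in DESeq2, and 4 and 3 with the block and the legacy test; with 1 library left out they ran from 0 to 10 and 0 to 7. None was called for PA against control under any alternative. Voom in limma, run without the block, called no collagen and no other gene in any comparison. Genes called, of 17299 tested, were 117 and 280 with the block, 130 and 200 in DESeq2, 279 and 364 with the block in DESeq2, and 121 and 263 with the block and the legacy test; with 1 library left out, where the filter kept other numbers of genes, they ran from 0 (of 18408) to 560 (of 18250) and 0 (of 18408) to 626 (of 18459). For PA against control the block in DESeq2 called 1 gene, and leaving out 1 library gave 0 to 12. Where a group is left with 1 library, it is assumed to vary like the others. The cause of these differences was not tested. No fold change of a collagen that qualified for printing changed sign in any alternative. To qualify, an estimate had to exceed 1.5 SE or pass with the block in these same libraries, which favours a stable sign. Among other collagens with a mean of at least 2 CPM, whose fold changes did not qualify, some estimates did. These were 25 of 253 for PA + PS2 against control, 28 of 322 for PA + PS2 against PA and 75 of 598 for PA against control. With 2 libraries a group, calls rest on few degrees of freedom, and the median SE of a log2 fold change was 0.66 for genes under 1 CPM, so differences in scarce chains such as Col4a3 or Col9a2 were not detectable at this depth.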

Other observations

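The ratio of Col4a1 to Col4a2, in RPKM, was 0.713 and 0.748 in PA + PS2, 1.23 and 1.07 in PA and 1.01 and 1.24 in the control, so both PA + PS2 libraries lay below the other 4. The ratio of Col4a5 to Col4a6 was 5.89 and 4.56 in PA + PS2, 5.50 and 3.57 in PA and 6.19 and 4.92 in the control, with overlapping groups. The ratio of Col4a3 to Col4a4, both scarce, was 0.799 and 0.511 in PA + PS2, 0.742 and 0.330 in PA and 1.23 and 0.653 in the control, also with overlapping groups. The ratio of Col1a1 to Col1a2 was 4.11 and 3.86 in PA + PS2, 4.44 and 9.80 in PA and 4.41 and 8.07 in the control, high in repeat 2 of PA and control and not in repeat 2 of PA + PS2. These ratios were looked at after the levels were seen and carry no test.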
